A study of Mus musculus with 6 samples.

Results

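The grainyhead-like factors Grhl1, Grhl2 and Grhl3, the ovo-like factors Ovol1 and Ovol2, the epithelium-specific ETS factors Elf3, Elf5 and Ehf and the Krüppel-like factors Klf4 and Klf5 were followed in Met-1 TripZ-200c cells. These 10 genes were chosen by name as factors known to specify epithelial state, and each was found once among the 43387 gene symbols of the deposited table. Met-1 is a mammary carcinoma line from a late-stage MMTV-PyMT tumor of an FVB/nJ mouse, and Met-1 TripZ-200c is a single clone of it. All 6 libraries come from this clone and so carry the same inducible vector, which encodes the precursor of miR-200c and an RFP tag and is switched on by doxycycline (Dox). The cells had been sorted for no RFP without Dox and for intermediate RFP with it. Treated cells received 1 µg/mL Dox for 48 h and control cells received no Dox, with 3 libraries per group (PlusDox and MinusDox). Cells with the empty vector were not analysed here, so an effect of Dox itself and an effect of miR-200c cannot be told apart in these libraries.

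Grainyhead-like factors bind and activate genes of cell junctions and of the epithelial barrier, and ovo-like factors are zinc finger repressors that keep mesenchymal genes off. Elf3, Elf5 and Ehf are ETS factors found mainly in epithelia, and Elf5 drives the alveolar secretory lineage of the mammary gland. Klf4 and Klf5 act in barrier formation and in growth of epithelial progenitors. The miR-200 family and the repressors ZEB1 and ZEB2 silence each other, and ZEB proteins bind E-boxes in the promoters of epithelial genes.

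The mature strand made from the vector is shown first because its seed defines which messages it can pair with. It is given as RefSeq lists mouse miR-200c-3p (GRCm38.p6, chr6:124718324-124718346, minus strand), 5′ to 3′, with the seed, bases 2 to 8, in capitals.
miR-200c-3p: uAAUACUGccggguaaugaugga
The seed pairs with CAGTATT. In the longest annotated 3′ UTR of each factor this match was absent from 9 of the 10 genes. The exception was Klf4, with 1 match in 982 bases. For comparison, 16.1% of the 10798 genes tested that have an annotated 3′ UTR held at least 1 match, and Zeb2, an established target, held 5 in 4941 bases. The Klf4 site (GRCm38, chr4:55528073-55528094, minus strand) and the first 2 of the Zeb2 sites (chr2:44988173-44988194 and chr2:44988108-44988129, minus strand) are shown side by side, with the match in capitals.
Klf4 site: caggagagagagttCAGTATTt
Zeb2 site 1: gcactaccatacatCAGTATTt
Zeb2 site 2: gcactacagtgcatCAGTATTa
A match is a description of the letters and no evidence of binding.

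The promoter windows that hold an E-box of the ZEB type are shown because the messages of Zeb1 and Zeb2 changed in these cells. RefSeq promoter windows (GRCm38.p6, 250 bases before to 50 after a start site) were found for 6 of the factors, namely Grhl1, Grhl3, Ovol2, Elf3, Elf5 and Klf4. Both strands were searched for CAGGTG, whose other strand reads CACCTG. It stood in the windows of 3 of these genes, Grhl3, Elf3 and Elf5. Over all 32851 windows the share was 20.2%, counted per window and not per gene. Grhl1 and Elf5 have 2 windows each. The Elf3 window (chr1:135258423-135258722, minus strand) has 1 match, the Grhl3 window (chr4:135573583-135573882, minus strand) has 2 and the first Elf5 window (chr2:103411848-103412147, plus strand) has 3, in capitals below.
Elf3: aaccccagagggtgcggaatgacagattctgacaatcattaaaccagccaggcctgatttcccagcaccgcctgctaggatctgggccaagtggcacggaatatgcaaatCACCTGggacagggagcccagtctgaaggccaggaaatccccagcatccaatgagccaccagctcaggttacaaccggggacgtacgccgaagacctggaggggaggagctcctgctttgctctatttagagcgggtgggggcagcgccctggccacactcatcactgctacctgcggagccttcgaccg
Grhl3: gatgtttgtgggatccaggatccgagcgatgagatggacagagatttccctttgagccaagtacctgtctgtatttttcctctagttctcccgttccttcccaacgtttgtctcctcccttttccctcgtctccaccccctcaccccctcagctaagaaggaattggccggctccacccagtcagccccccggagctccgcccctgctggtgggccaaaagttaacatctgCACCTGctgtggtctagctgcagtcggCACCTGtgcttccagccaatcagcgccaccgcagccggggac
Elf5: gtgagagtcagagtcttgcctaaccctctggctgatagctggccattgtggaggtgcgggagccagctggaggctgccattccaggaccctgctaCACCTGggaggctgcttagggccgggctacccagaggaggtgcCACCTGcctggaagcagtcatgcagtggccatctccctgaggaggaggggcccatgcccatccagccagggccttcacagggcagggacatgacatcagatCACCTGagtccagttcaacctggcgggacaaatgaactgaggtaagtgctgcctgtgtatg
A second start site of Elf5 has 1 match, and the windows of Grhl1, Ovol2 and Klf4 have none.

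Values are FPKM, read numbers scaled to transcript length and to the mapped reads of the library, so levels of different genes can be compared per length. Read numbers are not part of the table, but the steps between the lowest values gave relative depths of 0.917 to 1.301 without Dox and 0.986 to 1.493 with Dox, the second PlusDox library being the deepest. A 0 need not mean absence, since all 37 mitochondrial genes are listed at 0 as well. The line was checked against markers of its tissue. Without Dox the keratin Krt18 stood at 91.2 to 96.4 FPKM, whereas Cdh1 (E-cadherin) was at 0.0419 to 0.0776, Epcam at 0.0844 to 0.161, Krt8 at 0.186 to 0.388, and Krt5 and Krt19 were listed at 0. Cdh1, Epcam and Krt18 rose with Dox. Of 6 fibroblast markers Pdgfra and Pdgfrb were above 1 FPKM and both fell, Pdgfrb from 32.4 to 15.5 FPKM, while the summed list came to 50.9 to 53.3 FPKM without and 30.2 to 32.7 with Dox. Of the 5 macrophage markers listed only Cd68 was above 1 FPKM, Ptprc, Csf1r and Itgam were at most 0.222 and Emr1 was at 0, and the sums were 6.4 to 11.4 and 6.85 to 7.63 FPKM. Of 4 endothelial markers only Cdh5 was above 1 FPKM, the others were at most 0.373, and the sums were 4.47 to 5.12 and 4.19 to 4.59 FPKM. None of the macrophage or endothelial markers passed the test described below. The part of other cells in the results was not tested.

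Klf4 and Klf5 were abundant in Met-1 TripZ-200c cells, Elf3 and Grhl1 were low, and the other 6 factors were at or near 0. Elf3 rose 2.46-fold and Klf5 rose 1.16-fold by the ratio of group means. Klf4 and Grhl1 did not pass the test, Grhl2, Ovol1 and Ehf were at most 0.247 FPKM in every library, and Grhl3, Ovol2 and Elf5 were listed at 0 in all 6 libraries. The test was limma on log2(FPKM + 0.1) over the 12879 genes averaging 1 FPKM or more, with Benjamini-Hochberg adjusted p-values called under 0.05. On this scale the difference of a low gene is understated. Of the 10 factors, 4 reached that mean and 2 of these were called, both higher, against 15.0% of all genes tested and 7.06% called higher. Under other settings or with 1 library left out, Elf3 was called in 6 of 14 fits and Klf5 in 10 of 15. In bulk RNA, a change in the number of cells that express a gene and a change in RNA per cell cannot be told apart.

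**Figure D1:**
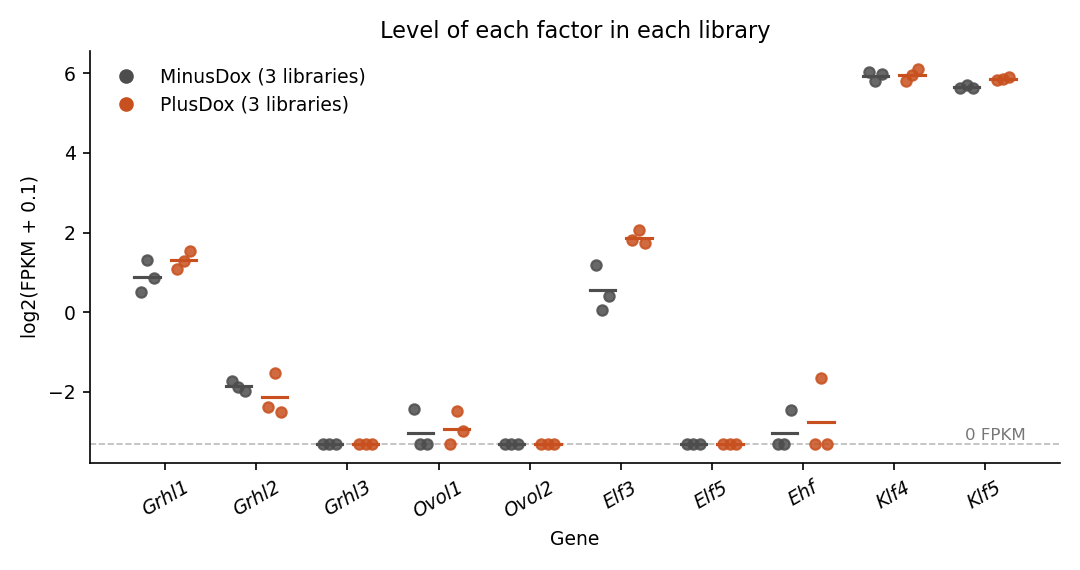
Level of each of the 10 factors in each library, as log2(FPKM + 0.1), with MinusDox in grey and PlusDox in orange. Horizontal bars are group means and the dashed line marks 0 FPKM. Klf4 and Klf5 lie at 49.6 FPKM or more in every library, Elf3 and Grhl1 between 0.947 and 4.09 FPKM, and the other 6 factors at or below 0.247 FPKM.

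Klf4 and Klf5 made up 96.8% to 97.3% of the summed FPKM of the 10 factors without Dox and 94.5% to 95.5% with Dox. The other 8 factors together came to 3.17 to 3.79 FPKM without Dox and 5.52 to 6.99 FPKM with Dox. By mean level over the 6 libraries the order was Klf4, Klf5, Elf3, Grhl1, Grhl2, Ehf and Ovol1, followed by the 3 genes listed at 0. Among the 20513 genes above 0 in any library, Klf4 had rank 2881, Klf5 3289, Elf3 11607 and Grhl1 11855. Without Dox the ranges of Klf4 and Klf5 did not overlap, while those of Elf3 and Grhl1 did. With Dox this was the other way round, since the ranges of Klf4 and Klf5 overlapped and that of Elf3 lay above that of Grhl1. Grhl2 lay below Grhl1 in both groups, and its range overlapped that of Ehf with Dox only.

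Grhl1 (ENSMUSG00000020656, GRCm38 chr12:24572283-24617391), which regulates desmosomal cadherin genes in the epidermis, had 1.33, 2.37 and 1.70 FPKM in the MinusDox libraries and 2.01, 2.36 and 2.78 FPKM in the PlusDox libraries. The groups overlapped, since the second MinusDox library was as high as the second PlusDox library. The log2 difference was 0.41 (standard error 0.265, 95% interval -0.21 to 1.04, adjusted p = 0.361 from limma), an interval that holds both no change and a doubling. Grhl2 (ENSMUSG00000022286, chr15:37233036-37363569), the grainyhead-like factor most closely tied to Cdh1 and claudin expression, had 0.204, 0.172 and 0.156 FPKM in the MinusDox and 0.0913, 0.247 and 0.077 FPKM in the PlusDox libraries. The highest and the lowest values were both in PlusDox libraries, and the highest was in the deepest one. Of the 3 factors under the filter, none had groups that did not overlap. Among the 20509 genes above 0 with 6 values, 5244 (25.6%) had such groups. Of these, 4504 were among the 12875 genes averaging 1 FPKM or more (35.0%), so the share under the filter is lower than 25.6%. Fitted by limma without the filter on low values, in which 7.84% of 20513 genes were called, Grhl2 had a log2 difference of -0.28 (95% interval -1.10 to 0.53, adjusted p = 0.682). Grhl3 (ENSMUSG00000037188, chr4:135541888-135573630), a factor of epidermal barrier formation and neural tube closure, was listed at 0 in every library, with the 2 E-boxes shown above near its start site. The CP2 factors form the other branch of the grainyhead superfamily, and Tfcp2 and Ubp1 among them are broadly expressed regulators. Of Ubp1, Tfcp2 and Tfcp2l1, 2 were above the filter and none was called. Ubp1 was at 42.8 ± 0.546 FPKM (SD, n = 3) without and 46.7 ± 0.160 FPKM (SD, n = 3) with Dox (adjusted p = 0.0779 from limma), and Tfcp2 had an adjusted p of 0.909 from limma.

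The ovo-like factors were near or at 0. Ovol1 (ENSMUSG00000024922, chr19:5549136-5560646), which limits progenitor growth in epidermis, had 0.0863, 0 and 0 FPKM in the MinusDox and 0, 0.0775 and 0.0258 FPKM in the PlusDox libraries. It was above 0 in 3 of 6 libraries, spread over both groups, and no difference is given for it (adjusted p = 0.914 from limma without the filter). Ovol2 (ENSMUSG00000037279, chr2:144305175-144332146), a repressor of Zeb1 in epithelia, was listed at 0 in all libraries, and so was its relative Ovol3. Of the longest Ovol1 transcript 23.3% is shared with the overlapping gene Gm31166 on the other strand, and of Ovol2 15.3% with 1700108N11Rik, whose highest value was 0.0736 FPKM. The libraries came from a stranded kit, but whether the counting used strand is not given in the sources used here.

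Elf3 (ENSMUSG00000003051, chr1:135253575-135258568), which activates genes of epithelial differentiation, rose with Dox from a low level. Its values were 2.18, 0.947 and 1.23 FPKM in the MinusDox libraries against 3.42, 4.09 and 3.21 FPKM in the PlusDox libraries. All 3 PlusDox libraries were above all 3 MinusDox libraries, a separation that 35.0% of the 12875 genes with 6 values showed in either direction and 17.4% in this direction, and the first MinusDox library was the highest of its group. The log2 difference was 1.32 (standard error 0.309, 95% interval 0.59 to 2.04, adjusted p = 0.0315 from limma). It kept its direction in all 14 alternatives but its call in 6 of them. Without the filter the adjusted p was 0.0672, with an unmoderated linear model on log2(FPKM + 1) it was 0.0906, and leaving out any library but the first MinusDox library gave 0.0706 to 0.106 (0.0706 and 0.0863 without MinusDox libraries 2 and 3, and 0.0838, 0.106 and 0.0804 without PlusDox libraries 1 to 3). The gene Gm26642 overlaps Elf3 on the other strand and shares 8.07% of its longest transcript, and it was at most 0.0534 FPKM.

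**Figure D2:**
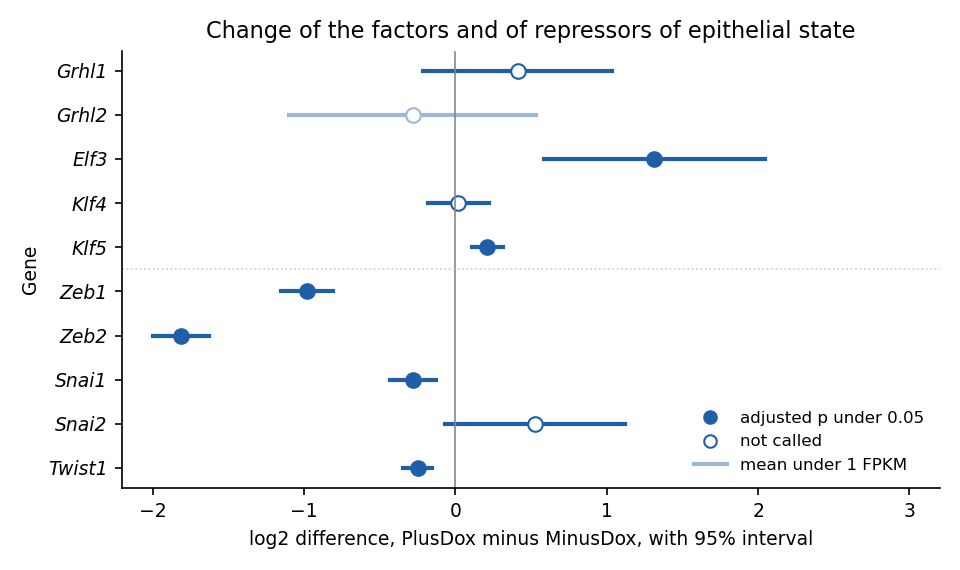
Log2 difference between PlusDox and MinusDox (horizontal axis) with its 95% interval from limma for the factors above 0 in more than 3 libraries and, below the dotted line, for repressors of epithelial state. Filled points have an adjusted p under 0.05, and the pale line marks Grhl2, which averaged under 1 FPKM. Among the factors the intervals of Elf3 and Klf5 lie above 0, and those of Zeb1, Zeb2, Snai1 and Twist1 lie below 0.

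The other epithelial ETS factors were at or near 0. Ehf (ENSMUSG00000012350, chr2:103263433-103303278), a close relative of Elf3 in glandular epithelia, had 0, 0 and 0.0834 FPKM in the MinusDox and 0, 0.219 and 0 FPKM in the PlusDox libraries. Only 1 library of each group was above 0 (adjusted p = 0.816 from limma without the filter, no difference given), and the higher value was again in the deepest library. Elf5 (ENSMUSG00000027186, chr2:103411688-103450989) was listed at 0 throughout. Of the 23 further ETS genes, 15 were above the filter, 3 fell and 12 were not called. Among all genes tested, 15.0% were called and 7.97% were called lower. Gabpa, a ubiquitous activator of mitochondrial and housekeeping genes, fell from 30.2 ± 0.615 to 25.1 ± 1.70 FPKM (SD, n = 3 each, adjusted p = 0.0315 from limma). Elk3, a target of ERK signalling, fell from 80.4 ± 0.723 to 69.2 ± 2.10 FPKM (adjusted p = 0.0115 from limma), and Ets1, a factor of mesenchymal and lymphoid cells, from 102 ± 0.867 to 90.8 ± 2.84 FPKM (adjusted p = 0.027 from limma). The median log2 difference of the 15 genes was 0.01, against 0.00 for all genes tested. With Dox, Elf3 was lower than each of the 15 further ETS genes above the filter, the lowest of which, Elf4 (named after its values were seen), had 11.8 ± 0.942 FPKM (SD, n = 3).

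**Figure D3:**
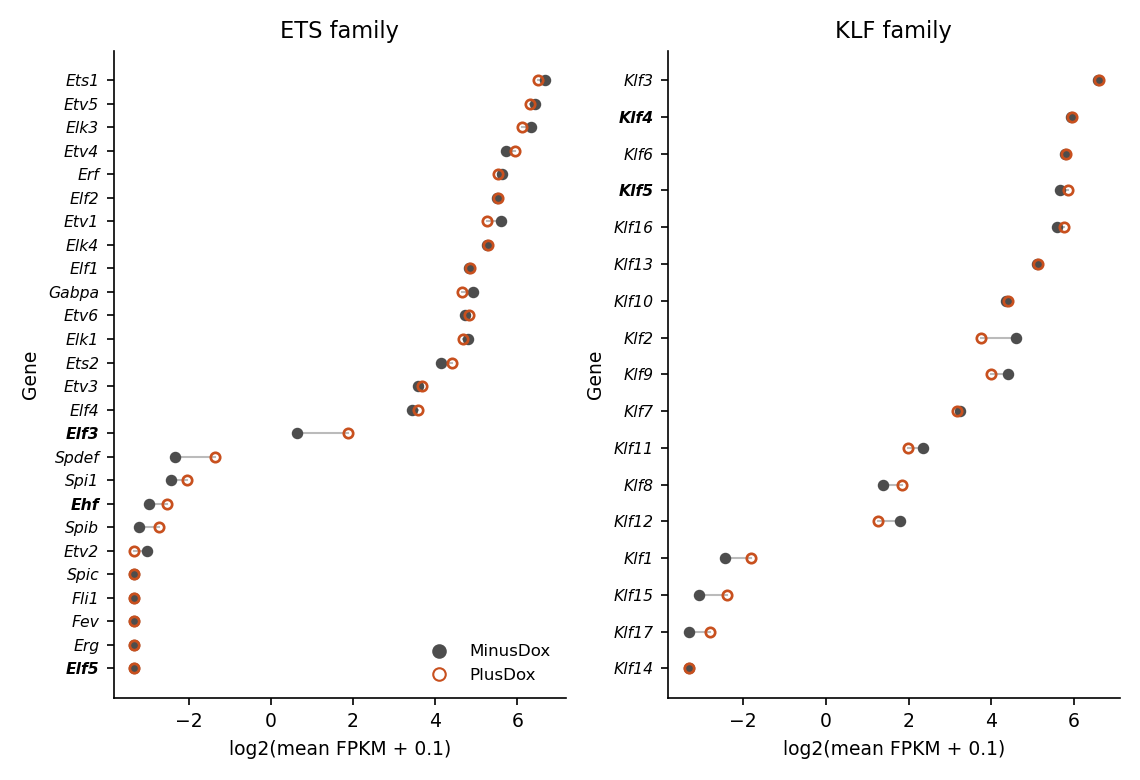
Mean level of every ETS gene (left) and KLF gene (right) listed, as log2(mean FPKM + 0.1), in MinusDox (filled grey) and PlusDox (open orange). Genes followed here are in bold. Elf3 stands between Elf4, the lowest of the further ETS genes above the filter, and the ETS genes near 0, and Klf4 and Klf5 stand among the 4 highest KLF genes.

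Klf5 (ENSMUSG00000005148, chr14:99298691-99315036), which sustains proliferation in epithelial progenitors, rose by a small amount. The MinusDox libraries held 49.6, 51.7 and 49.9 FPKM and the PlusDox libraries 56.8, 58.0 and 60.4 FPKM. The groups did not overlap, as in 35.0% of the 12875 genes tested with 6 values, and in 17.4% in this direction. The spread within each group was narrow. The log2 difference was 0.21 (standard error 0.0433, 95% interval 0.11 to 0.31, adjusted p = 0.0191 from limma). It was positive in all 15 alternatives and called in 10, and leaving out MinusDox library 1 or 3 or PlusDox library 2 or 3 gave adjusted p-values of 0.057, 0.059, 0.0587 and 0.0751. Klf4 (ENSMUSG00000003032, chr4:55527143-55532466), a barrier factor and the only one of the 10 with a seed match, had 65.1, 56.0 and 62.8 FPKM in the MinusDox libraries and 56.3, 61.9 and 68.4 FPKM in the PlusDox libraries. The groups overlapped almost entirely. The log2 difference was 0.02 (standard error 0.0856, 95% interval -0.18 to 0.22, adjusted p = 0.905 from limma).

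Among 15 further KLF genes, 11 were above the filter, 1 rose, 2 fell and 8 were not called. Of all genes tested, 7.06% were called higher and 7.97% lower. Klf2, a factor of quiescent endothelium and lymphocytes, had the largest change among the KLF genes called and fell from 24.2 ± 0.736 to 13.5 ± 1.34 FPKM (SD, n = 3 each, log2 difference -0.84, adjusted p = 9.97e-04 from limma). Klf9, a glucocorticoid-responsive repressor, fell from 21.02 ± 1.39 to 15.7 ± 0.509 FPKM (adjusted p = 0.00891 from limma). Klf16 rose from 48.0 ± 1.44 to 53.9 ± 1.14 FPKM (adjusted p = 0.0431 from limma). The median log2 difference of the 11 genes was 0.02.

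**Figure D4:**
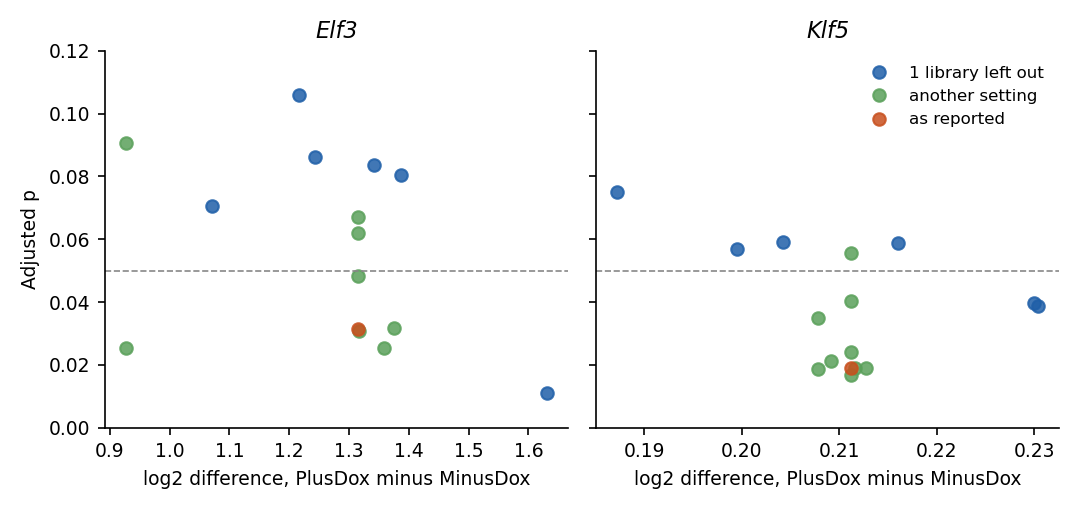
Adjusted p (vertical axis) against the log2 difference (horizontal axis) of Elf3 and Klf5 under each alternative. The dashed line marks 0.05, blue points leave out 1 library, green points change another setting and the orange point is the value as reported. The Elf3 difference stays between 0.93 and 1.63 and the Klf5 difference between 0.19 and 0.23, while both cross the line.

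Most of the repressors of epithelial state that were tested fell with Dox. Of Zeb1, Zeb2, Snai1, Snai2, Twist1 and Twist2, 5 were tested and 4 fell, against 7.97% of all genes tested, and Twist2 was listed at 0. Snai2 was not called and had 2.00 ± 0.505 FPKM without and 2.90 ± 0.487 FPKM with Dox (SD, n = 3 each, log2 difference 0.53, adjusted p = 0.219 from limma). Zeb1 had 41.0, 42.1 and 42.3 FPKM in the MinusDox and 19.8, 20.3 and 23.6 FPKM in the PlusDox libraries. Zeb2 had 29.4, 30.7 and 27.9 FPKM in the MinusDox and 9.04, 7.82 and 8.004 FPKM in the PlusDox libraries. Neither gene overlapped between the groups, a separation that 35.0% of the 12875 genes tested with 6 values showed in either direction. The log2 differences of Zeb1 and Zeb2 were -0.98 and -1.81 (adjusted p = 3.62e-04 and 4.48e-05 from limma). Both were higher than Elf3, Grhl1 and Grhl2 in every library. Snai1 and Twist1 had log2 differences of -0.28 and -0.25 (adjusted p = 0.0301 and 0.00861 from limma).

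Epithelial genes that the factors are known to bind or to raise were read from a list of 30, among them junction, protease and splicing genes. Of these, 10 averaged 1 FPKM or more. Of the 10, 8 were called higher, against 7.06% of all genes tested, and 2 were not called, Lmo4 and Arhgef19. Another 17 were above 0 but under the filter, and 3 were listed at 0. Of the 17, 4 were called higher in the fit without the filter. In that fit 1608 of 20513 genes (7.84%) were called in either direction, 782 of them higher. Since Epcam and Crb3 reached the filter only through the PlusDox libraries, the count was also taken over the 8 genes with at least 1 FPKM without Dox, of which 6 rose. The median log2 difference of these 8 genes was 0.762, against 0.00129 for all genes tested that reached the same level without Dox. Epcam, an epithelial adhesion molecule, had 0.0844, 0.137 and 0.161 FPKM in the MinusDox and 4.31, 3.88 and 3.98 FPKM in the PlusDox libraries (adjusted p = 5.26e-04 from limma). Crb3, which sets apical polarity, was listed at 0 without Dox and was at 4.31, 2.60 and 2.06 FPKM with Dox (adjusted p = 0.00211 from limma). Cdh1 rose from 0.0585 ± 0.018 to 0.828 ± 0.361 FPKM and Dsg2, a desmosomal cadherin, from 0.0236 ± 0.0321 to 0.876 ± 0.238 FPKM (SD, n = 3 each, adjusted p = 0.0125 and 0.0055 from limma without the filter). Among genes already expressed without Dox, 2 were picked after their values were seen. Cgn (cingulin of tight junctions) rose from 5.91 ± 0.298 to 24.0 ± 1.12 FPKM and Spint2, an inhibitor of matriptase, from 52.5 ± 2.13 to 174 ± 8.07 FPKM (SD, n = 3 each, adjusted p = 2.04e-05 and 8.52e-06 from limma). Neither overlapped between the groups, a separation that 17.4% of the 12875 genes tested with 6 values showed in this direction.

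**Figure D5:**
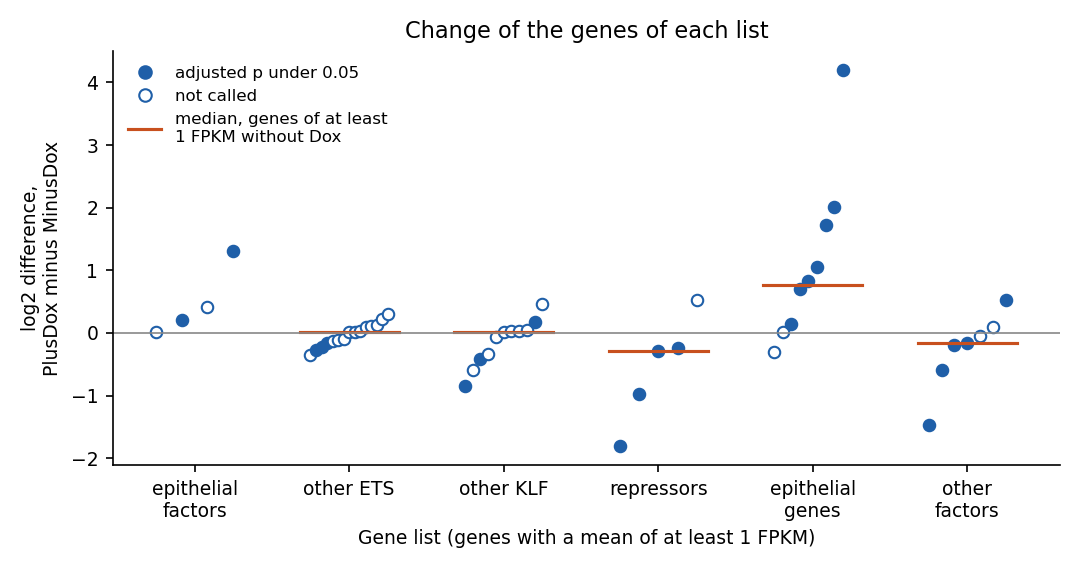
Log2 difference between PlusDox and MinusDox (vertical axis) for the genes of each list averaging 1 FPKM or more, filled where the adjusted p from limma was under 0.05. Orange bars are medians over the genes with at least 1 FPKM without Dox, drawn for all lists but the factors themselves, so that Epcam (the highest point) and Crb3 (listed at 0 without Dox, not drawn) do not count in them. The epithelial genes have a median of 0.762, the repressors one of -0.28 and the ETS and KLF relatives medians of 0.01 and 0.02.

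Further factors of mammary and other epithelia changed in both directions. Of 10 such genes, 7 were tested, 1 rose and 4 fell, against 7.06% called higher and 7.97% called lower among all genes tested. Foxa1, a pioneer factor of luminal cells that lay under the filter (named after its values were seen), had 0.649, 0.368 and 0.259 FPKM in the MinusDox and 1.02, 0.997 and 1.42 FPKM in the PlusDox libraries. Its groups did not overlap, as in 25.6% of the 20509 genes above 0 with 6 values. That share is lower among genes under the filter, since it was 35.0% among those above it. Foxa1 was not called (log2 difference 1.297, adjusted p = 0.105 from limma without the filter). Cebpa, a factor of terminal differentiation, fell from 12.6 ± 1.75 to 4.51 ± 0.555 FPKM (SD, n = 3 each, adjusted p = 8.46e-04 from limma). Tfap2a, an AP-2 factor of surface ectoderm and mammary epithelium, fell from 56.0 ± 3.16 to 37.2 ± 1.23 FPKM (adjusted p = 8.70e-04 from limma). Sox9, a progenitor factor, fell from 113 ± 0.481 to 98.8 ± 4.19 FPKM (adjusted p = 0.0211 from limma). Id1, an inhibitor of helix-loop-helix factors and a target of BMP signalling, rose from 113 ± 5.68 to 164 ± 11.9 FPKM (adjusted p = 0.00217 from limma). The median log2 difference of the 7 genes was -0.16.

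Over the 6 libraries the genes whose log2 levels followed that of Elf3 most closely were Tnpo2, Dock5 and Eml3, each with a Pearson correlation of 0.991 among the 12879 genes tested. The 6 points are the same 2 groups of 3 libraries for every gene. None of the 3 genes was itself called (adjusted p = 0.189, 0.34 and 0.0915 from limma), and their log2 differences were 0.10, 0.08 and 0.22.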

How the data were processed

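RNA of 6 samples was sequenced by the authors as single 50-base reads from TruSeq Stranded libraries and mapped with gSNAP to the mouse genome (GRCm38.p6, with an FVB/NJ assembly also named). Expression was estimated with Cufflinks, and the authors deposited FPKM per gene and library, with group means. Their columns of fold changes, p-values and q-values were not used. Versions are not given in the sources used here.

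Of 43611 rows, 63 repeats of an identifier, none of them of a factor, were dropped in favour of the row with the highest mean, and 6 placeholder values in 4 genes were treated as missing. Genes averaging 1 FPKM or more were compared with limma 3.58.1 in R 4.3.3 (eBayes with a trend) on log2(FPKM + 0.1), with the group as the only term and two-sided, Benjamini-Hochberg adjusted p-values over all genes tested. For factors under this filter the model was fitted again over all genes above 0 in any library. No source used here says for certain that the libraries of a group come from separate experiments, so p-values measure only the spread between these samples, which may be technical. No source used here says that the replicate numbers pair the libraries. The correlations of deviations of same-numbered libraries were 0.0287, 0.0359 and -0.00759. Such values cannot show whether same-numbered libraries were prepared together.

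The factors and lists were chosen with earlier results of these data known. Named genes are the 10 factors, Zeb1, Zeb2, Cdh1 and Epcam, up to 4 called genes per list with the largest log2 difference (the 2 with the highest mean where none was called) and the 3 genes most correlated with the called factor of largest difference. Gene coordinates, 3′ UTRs and transcripts are those of GENCODE M21 (GRCm38), miRNA and promoter sequences those of RefSeq, and shared sequence was searched for with BLAST 2.17.0.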

Additional observations from a re-analysis of the deposited data

How the results depend on the processing

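Of the 10 factors, 2 were called as reported, 1 without the filter on low values, 1 with a minimum mean of 5 FPKM (where only Klf4 and Klf5 were tested), 1 with the unmoderated linear model and 0 when the replicate number was added to limma as a block. With the replicate block the adjusted p from limma was 0.0621 for Elf3 and 0.0556 for Klf5, and the genes called overall went from 1935 to 1337. Leaving out 1 library at a time gave 0 to 1 factors and 1069 to 1371 genes called, with fewer samples in each fit, the fewest being 1260 without MinusDox library 2 and 1247, 1257 and 1069 without PlusDox libraries 1 to 3. Over those fits the log2 difference of Klf4 ran from -0.0504 to 0.0895, being negative without MinusDox library 2 (-0.0437) or PlusDox library 3 (-0.0504). Differences of Elf3, Klf5, Grhl1 and Grhl2 kept their sign in every alternative run, and Grhl1, Grhl2 and Klf4 were called in none. Other pseudocounts, quantile normalization, scaling to the same median and limma without the trend left the 2 calls as they were. No differences were set for Ehf and Ovol1, at 0 in 3 or more of 6 libraries. FPKM removes depth, so no limit of detection could be given for the genes listed at 0.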

Other observations

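The low values of Ovol1 and Ehf were compared as multiples. Multiplied by the relative depth of each library and divided by the smallest value above 0, Ovol1 gave 2.99 in the first MinusDox library, 4.01 in the second PlusDox library and 1 in the third PlusDox library. Ehf gave 1 in the third MinusDox library and 3.01 in the second PlusDox library. The smallest value of each gene is 1 by construction, which leaves 2 values of Ovol1 and 1 value of Ehf, and these 3 were whole within 0.05. Grhl2 gave 1 to 4.28, and besides its smallest value 1 of 5 was whole within 0.05. The second PlusDox library, the deepest with a relative depth of 1.493, was also the one with most factors above 0, 7 of 10 against 5 or 6 in the others, and the part of depth in this was not tested.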
